A study of Mus musculus with 96 samples.

Results

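The stretch described here is mouse chromosome 4 from 40 to 58 Mb (NCBIM37/mm9), as contacted from 12 viewpoints further along the same chromosome. In reference coordinates these viewpoints lie 89.9 to 115.5 Mb away. The members of the stretch are the HindIII restriction fragments whose end lies from base 40000001 to base 58000000. There were 5659 of them among the 48320 HindIII fragments of chromosome 4. The stretch was read as 36 steps of 500 kb.

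Paired-end circular chromosome conformation capture sequencing (PE-4Cseq) ligates cross-linked restriction fragments and amplifies everything joined to a chosen fragment, the viewpoint. A sequence variant in the viewpoint read tells which of the homologues was the template. Mouse embryonic fibroblasts (MEFs) from embryos dissected 13.5 days after the plug, used at confluent passage 4, gave 96 libraries from 4 lines, 12 viewpoints and both alleles. In lines E71 and E98 the 129S5 chromosome 4 carries an engineered deletion in band 4E2 (Df), beside an intact C57Bl/6J homologue called +DBl6. In lines E117 and E118 neither homologue is deleted, and they are called +129 and +Bl6. Per the methods, embryos with Df came from crosses of Df/Dp male chimeras with C57BL/6J, and F1 +129/+Bl6 crosses were the controls. All 4 lines thus share the hybrid background of C57BL/6J and 129S5SvEvBrd, and each genotype rests on 2 cultures. Viewpoints are numbered 1 to 12 from the label positions 147.9, 148.9, 150.4, 150.9, 151.6, 152.1, 152.4, 152.9, 153.4, 153.9, 154.9 and 155.5 Mb, and numbers 3 to 10 lie inside the deleted segment, so Df was read at 1, 2, 11 and 12 only.

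As background, the contact frequency of 2 loci on a chromosome falls steeply with their distance and then flattens, so that at very long range the remaining contacts are few and follow the kind of chromatin more than the distance. Mammalian chromatin is known to sort into gene-rich, early-replicating, GC-rich segments that tend to meet each other, and gene-poor, AT-rich segments that tend to meet at the nuclear lamina. A far contact seen by 4C is therefore described by long segments rather than by single fragments. In a 4C library a fragment is either captured or not in a limited number of cells, and its read number after amplification says little about how often it was met.

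The fragments met most often show what a capture is. The 4 fragments with at least 5 reads in the largest number of libraries are given by their 2 ends, each written 5′ to 3′ into the fragment for its first 30 bases, with the HindIII site in capitals. The left end is the plus strand and the right end the minus strand of NCBIM37, and each of these 30-base ends occurs once among all HindIII ends of the genome.
chr4:40964849-40968998 left end: AAGCTTccatgtagtactacggtaaacatt
chr4:40964849-40968998 right end: AAGCTTactttacctggcttaattatgggg
chr4:41382341-41387100 left end: AAGCTTttcaatatattgctaagtacagac
chr4:41382341-41387100 right end: AAGCTTatttttaggttagacagggaatat
chr4:43172770-43173523 left end: AAGCTTtgtctgcagggagagctgcctctg
chr4:43172770-43173523 right end: AAGCTTtaagctaaagctcaattctcctgg
chr4:43581089-43586117 left end: AAGCTTctcggcctcggcagagaatggaag
chr4:43581089-43586117 right end: AAGCTTcatgcataactttactgttcacgg
The first of these lies in Nfx1, a zinc-finger transcription factor gene, overlaps an exon of it, and was captured in 20 of 78 libraries, from 10 viewpoints and in all 4 lines. The second lies in an intron of Kif24, which encodes a kinesin, and was captured in 16 libraries from 8 viewpoints. The fragment in an intron of Unc13b, a gene of synaptic vesicle priming, was captured in 15 libraries and in 3 of the 4 lines. The fragment overlapping an exon of Gba2, a glucosylceramidase gene, was captured in 15 libraries from 5 viewpoints. All 4 fall in the 2 blocks with the highest capture density of the stretch, described below. Another fragment, in an intron of Coro2a, was also captured in 15 libraries.

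A fragment was taken as captured where a library held at least 5 reads on it. Of the 96 libraries, 16 are Df libraries of deleted viewpoints and 2 are those of line E117 at viewpoint 10, with 444 and 1255 reads, and the other 78 were used. They held 64058 to 3969613 reads each on chromosome 4. Within the stretch a library captured between 10 and 307 of the 5659 fragments. The lowest share was 0.177% (95% Wilson interval 0.0960% to 0.325%, +129 of line E117 at viewpoint 8) and the highest 5.43% (4.86% to 6.05%, +Bl6 of line E118 at viewpoint 3). These intervals cover counting error only, since amplified reads carry no molecular identifiers. Over the 78 libraries together 2200 fragments, or 38.9%, were never captured, against 47.7% of the 32532 fragments from 3 to 100 Mb, and 799 (14.1%) were captured in 5 or more libraries, against 9.29%.

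Some libraries were not independent of each other. Reads at shared fragments were correlated between libraries of different lines (r above 0.5 over at least 30 shared fragments) for +DBl6 of E71 and E98 at viewpoints 4, 6, 7 and 8, for the control lines at 7 and 9, and at viewpoints 10 and 11. The values below were therefore taken from viewpoints 1, 2, 3, 5 and 12, where no such pair was found (36 libraries), unless a viewpoint is named or all viewpoints are stated. The 2 alleles of the same line and viewpoint also shared captured fragments, 532 in the stretch where 100.2 would be shared at random, a ratio of 5.31 against 2.17 between different lines. The part that incompletely separated alleles play in this was not tested, nor was the cause of the correlated reads between lines. The MEF line was the replicate (n = 4).

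The stretch was contacted more often than the distal level, which is the share of captured fragments among all fragments from 3 to 100 Mb in the same library. Captured fragments over the count at the distal level gave 1.37 in E71, 1.50 in E98, 1.30 in E117 and 1.35 in E118, a mean of 1.38 ± 0.0861 (SD, n = 4). The lines therefore lay close together and all above 1. The neighbouring stretches gave 0.552 ± 0.0253 from 3 to 40 Mb, 0.939 ± 0.0311 from 58 to 80 Mb and 1.60 ± 0.0761 from 80 to 100 Mb. The level of 40 to 58 Mb thus stood above that of the nearer stretch from 58 to 80 Mb in each line, while the stretch closest to the viewpoints was higher again. Among single libraries the ratio was above 1 in 70 of 78, with a median of 1.33 and a range of 0.797 to 2.14. The 8 libraries below 1 were 3 of viewpoint 6, 2 of viewpoint 7, 2 of viewpoint 8 and 1 of viewpoint 9.

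The higher level was not spread evenly. Of the 36 steps, 21 were above the distal level, 9 were below it and 6 were not called by the edgeR quasi-likelihood test over the 4 lines (Benjamini-Hochberg adjusted p under 0.05 over all 194 steps from 3 to 100 Mb). Of all 194 steps, 32.0% were called above and 57.2% below, so steps above were more frequent here than over the whole distal chromosome. Outside the stretch 41 of 158 steps were above, 5 of 74 from 3 to 40 Mb, 10 of 44 from 58 to 80 Mb and 26 of 40 from 80 to 100 Mb. Of the 21 steps above, 20 lay above 1 in each of the 4 lines (30.4% of all 194 steps did so and were called). The exception, the step from 48.0 Mb, had a ratio of 1.24 over all lines (adjusted p = 0.0281, edgeR) and 0.871 in E71. Joined where they touch, the steps that had a single direction in the 4 lines formed 4 blocks above the distal level, 2 mappable blocks below it and a step of repeated sequence.

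**Figure D1:**
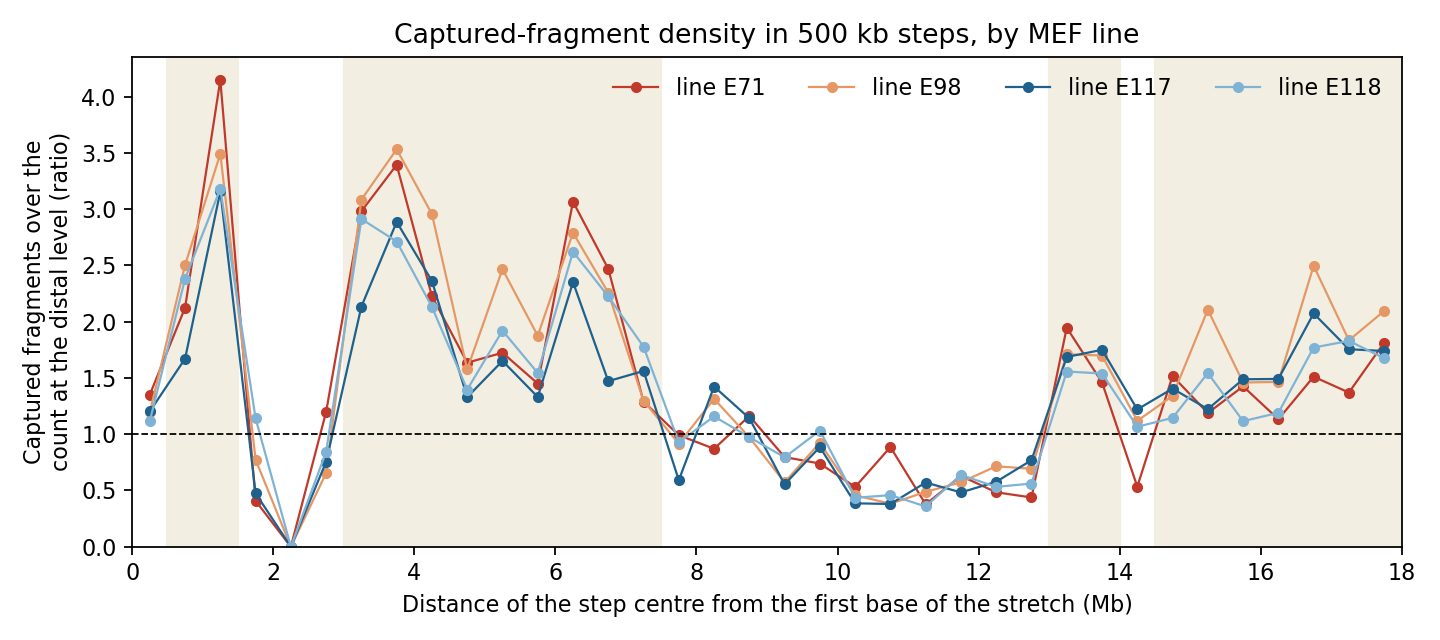
Captured fragments over the count at the distal level (y axis, ratio) in each 500 kb step, against distance in Mb from the first base of the stretch (x axis), with 1 line of points for each of the 4 MEF lines, the dashed line at 1 and the blocks above the distal level shaded. The 4 lines share high values at the steps from 41.0 Mb (3.16 to 4.15) and 43.5 Mb (2.71 to 3.53) and low values from 50.0 to 53.0 Mb.

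The block at chr4:40500001-41500000 had the highest density. It held 285 fragments and 20 protein-coding genes and gave 620 captures. Its ratio was 2.97 in E71, 2.92 in E98, 2.29 in E117 and 2.72 in E118 (mean 2.72 ± 0.308 SD, n = 4). That each line lay above 1 was fixed by the block rule. The lowest line exceeded the distal level by more than the range between the lines, as a description, since the block was chosen from these values. Within the block the step from 41.0 Mb reached a ratio of 3.35 (adjusted p = 1.94e-49 with edgeR and 2.82e-07 with limma). It was the third highest of the 194 distal steps. That step held 42 captures in E71, 82 in E98, 88 in E117 and 113 in E118, while the step from 40.5 Mb had ratios of 2.12, 2.50, 1.67 and 2.38 in these lines. The genes of this block include B4galt1, a galactosyltransferase of the Golgi, the ubiquitin-pathway genes Ube2r2, Ubap1 and Ubap2, Smu1, which encodes a splicing factor, and Aqp7, a water and glycerol channel of fat and other tissues. The densest 100 kb bins of the block were chr4:41200001-41300000 (ratio 4.17), over parts of Dcaf12, Ubap1 and Ubap2, and chr4:41300001-41400000 (4.11), over Kif24 and Ubap1.

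The block at chr4:43000001-47500000 was the longest, with 9 steps, 1288 fragments and 80 protein-coding genes, and it gave 2231 captures. Its ratio was 2.21 in E71, 2.39 in E98, 1.88 in E117 and 2.11 in E118 (2.15 ± 0.212 SD, n = 4). The values fell unevenly along it. The step from 43.5 Mb was highest, at 3.03 (adjusted p = 1.51e-47 with edgeR and 4.54e-07 with limma). It held 41, 99, 96 and 115 captures in E71, E98, E117 and E118. Next were the steps from 43.0 Mb (2.74), 46.0 Mb (2.63) and 44.0 Mb (2.41). The lowest, from 44.5 Mb, still had 1.45 and lay above 1 in each line (1.33 to 1.64). The highest 100 kb bin of the entire stretch, chr4:43400001-43500000 with a ratio of 4.26, holds Cd72, a B-cell surface receptor gene, together with Rusc2, Sit1, Tesk1 and Fam166b. The bin after it (3.91) holds Tln1, which encodes the integrin-linked protein talin, with Creb3, Gba2, Car9 and Tpm2. Further on in the block lie Clta, a clathrin light chain gene, Pax5, a B-cell transcription factor gene, Zcchc7 and Exosc3, both of nuclear RNA decay, and Tgfbr1, a TGF-beta receptor gene. The low step from 44.5 Mb is the one taken up mostly by Pax5 and Zcchc7.

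Past the end of this block the ratio returned to about the distal level. From 47.5 to 50.0 Mb the steps had ratios of 0.835, 1.24, 1.04, 0.672 and 0.933. Only the fourth of these, at chr4:49000001-49500000, was called below in all lines, with 0.797 in E71, 0.573 in E98, 0.555 in E117 and 0.795 in E118 (0.680 ± 0.134). It gave 97 captures and holds Acnat1 and Acnat2, acyltransferase genes of peroxisomes, and E130309F12Rik.

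The block at chr4:50000001-53000000 had the lowest ratio of the mappable blocks. It held 1009 fragments but gave 431 captures. Its ratio was 0.548 in E71, 0.552 in E98, 0.529 in E117 and 0.495 in E118 (0.531 ± 0.0262 SD, n = 4). The block rule admits only steps with all 4 lines on the same side of the distal level. That each line lay below 1 was therefore fixed in advance. The step from 50.0 Mb had 0.437 (adjusted p = 2.31e-11, edgeR), with 8, 16, 16 and 23 captures in E71, E98, E117 and E118, and the steps from 50.5 and 51.0 Mb had 0.462 and 0.453. The block holds 9 protein-coding genes in 3.0 Mb. Among them are Smc2, a condensin subunit gene, Cylc2, a gene of the sperm head, 4930547C10Rik and the olfactory receptor genes Olfr272, Olfr273 and Olfr275.

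The density rose again within a single step. The block at chr4:53000001-54000000 had a ratio of 1.70 in E71, 1.71 in E98, 1.72 in E117 and 1.55 in E118 (1.67 ± 0.0801), with 428 captures on 318 fragments. The step from 52.5 Mb had 0.640 (0.438 to 0.769 over the lines) and the step from 53.0 Mb 1.67 (1.56 to 1.95), on either side of the boundary that the block rule set. The genes of the block include Abca1, the cholesterol exporter, Slc44a1, a choline transporter gene, Fsd1l, Tmem38b, and Tal2, a transcription factor gene of the nervous system. The last block, chr4:54500001-58000000, had 1.42 in E71, 1.81 in E98, 1.58 in E117 and 1.45 in E118 (1.56 ± 0.178), with 1489 captures on 1162 fragments. It was highest at its far end, at 2.01, 1.76 and 1.81 in the steps from 56.5, 57 and 57.5 Mb, against 1.31 to 1.55 in its first 4 steps. Its genes include Rad23b, of DNA repair, Klf4, a transcription factor of epithelia and pluripotent cells, Ikbkap, a subunit of the Elongator complex, Actl7a, an actin-like gene of the testis, Akap2, an anchor of protein kinase A, and Txn1, which encodes thioredoxin. The gap between these 2 blocks, from 54.0 Mb, had a ratio of 1.07 and was not called.

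The segment from 41.5 to 43.0 Mb could be read only in part. Of the 142 fragments of the step from 42.0 Mb, 0.704% had an end that occurs once in the genome, and none of them was captured in the 36 libraries. With each library at 0 of 142 fragments, this step has no measured contact level. It is a tandem array that includes Gm13305, Gm13306, Gm2002, Gm2506, Gm10930 and Gm10931. In the steps from 41.5 and 42.5 Mb, 34.7% and 27.2% of fragments had such an end, and the ratios were 0.784 and 0.809 over all fragments. Counted among mappable fragments only, with the distal level taken in the same way, they were 2.06 (adjusted p = 4.20e-08, edgeR) and 2.76 (5.35e-14). The call of the step from 41.5 Mb below the distal level thus turned around with the denominator. Most captures of these 2 steps lay at the outer edges. The bins chr4:41500001-41600000 and chr4:41600001-41700000 held 42 and 43, and chr4:42900001-43000000 held 95. The bins chr4:41700001-41800000 and chr4:42800001-42900000 held 7 and 2, with 11.8% and 18.5% of fragments mappable. The ratios of mappable fragments thus describe the edges next to the first and second blocks, not the sequence between these edges.

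By chromosome, the blocks from 40.5, 43.0, 53.0 and 54.5 Mb had ratios above 1 on +129, +Bl6, +DBl6 and Df. The blocks were chosen from these libraries, summed over the 2 chromosomes of a line, so the values by chromosome are a description. Both lines of a chromosome were above the distal level in 22 of the 36 steps for +129, in 22 for +Bl6, in 21 for +DBl6 and in 18 for Df, out of 64, 65, 62 and 54 such steps of the 194. In 17 of the 36 steps both lines of all 4 chromosomes were above (25.3% of all 194 steps). Of the 33 steps that were at least 90% mappable, both lines of all 4 were below in 6 (36.4% of all 165 such distal steps). For the block from 40.5 Mb the lines E117 and E118 gave 1.99 and 2.69 on +129 and 2.59 and 2.74 on +Bl6, and the lines E71 and E98 gave 2.78 and 2.99 on +DBl6 and 3.46 and 2.77 on Df. For the block from 43.0 Mb the values in the same order were 1.75 and 2.00, 2.02 and 2.23, 2.20 and 2.36, and 2.23 and 2.45. Every chromosome and line was thus above 1 in both blocks, with the lowest single value of each on +129 of E117. For the low block from 50.0 Mb the values were 0.476 and 0.483 on +129, 0.581 and 0.506 on +Bl6, 0.578 and 0.501 on +DBl6, and 0.468 and 0.659 on Df, all below 1. The block from 53.0 Mb ranged from 1.22 (Df of E71) to 1.88 (+DBl6 of E71), and that from 54.5 Mb from 1.32 (+DBl6 of E71) to 1.86 (Df of E98).

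**Figure D2:**
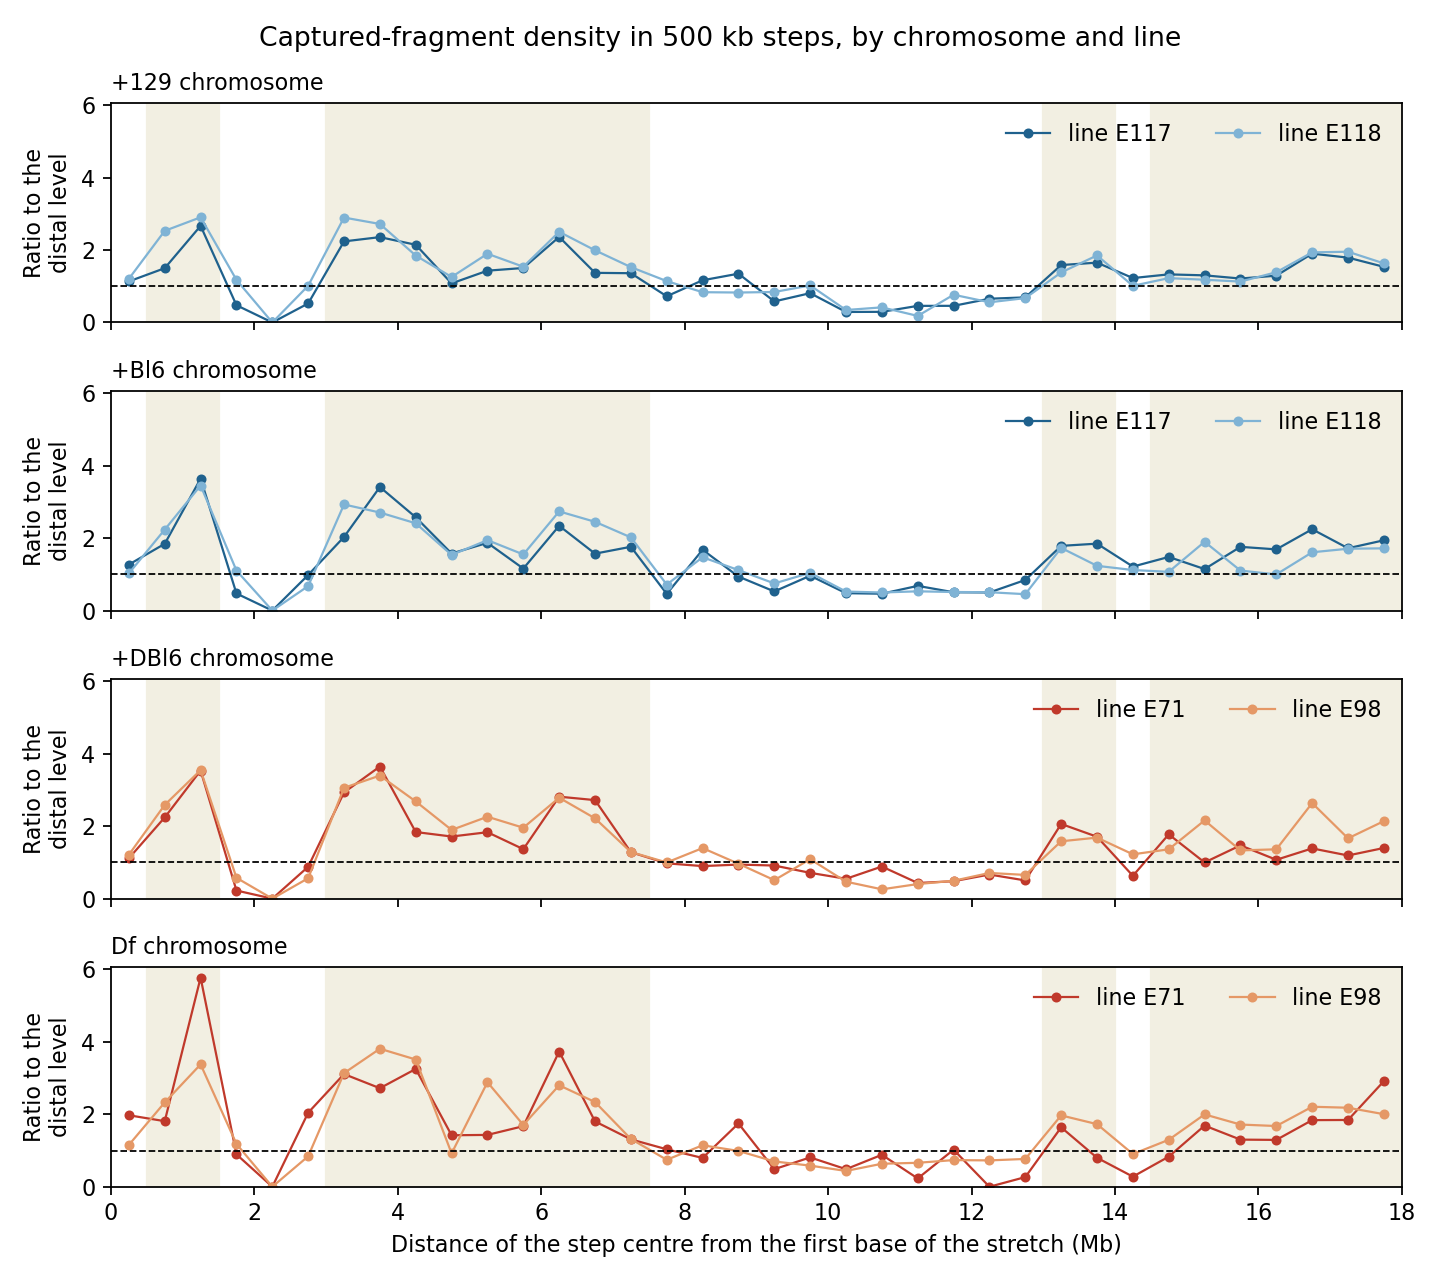
Captured fragments over the count at the distal level (y axis, ratio) in 500 kb steps (x axis, Mb from the first base of the stretch) for +129, +Bl6, +DBl6 and Df in separate panels, each with its 2 lines, the dashed line at 1 and the blocks above the distal level shaded. Peaks and the trough of the block from 50.0 Mb stand at the same places in the 4 panels. The Df panel is made from 3 viewpoints and the others from 5.

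Whether the deletion moves these contacts was asked by comparing Df with +129 at viewpoints 1, 2 and 12. These are the viewpoints outside the deletion without correlated reads between lines. None of the 32 steps of the stretch with enough captures was called by edgeR's quasi-likelihood test, with 1 at an unadjusted p under 0.05, and DESeq2 called none, with 0 at an unadjusted p under 0.05. Over the 236 steps of the chromosome tested, 3.81% were called lower and 0.0% higher in Df, and the 9 lower steps all lay from 150 to 154.5 Mb, where Df is deleted. The log2 differences of the stretch ran from -0.86 to 1.24 with a median of 0.06. The largest was that of the step from 44.0 Mb, which held 10 and 30 captures on Df in E71 and E98 and 13 and 10 on +129 in E117 and E118 (adjusted p = 0.0596, edgeR). The libraries differed in depth, and over each line's own distal level the step had 3.25 and 3.51 on Df and 1.80 and 1.08 on +129, so both Df lines lay above both +129 lines. It passed the threshold with the total of captured fragments as the scale (adjusted p = 0.0336) or with no minimum count (0.0267), so its call rests on those choices.

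As a single value the stretch had 1.46 and 1.53 times the distal level on Df (mean 1.50 ± 0.0503 SD) and 1.33 and 1.34 on +129 (1.34 ± 0.0033). The difference of 0.163 had p = 0.33 in the exact two-sided permutation test, which is the smallest value that 2 lines against 2 lines allow. By viewpoint, Df gave 1.49 and 1.55 and +129 gave 1.35 and 1.24 at viewpoint 1. At viewpoint 2 Df gave 2.03 and 1.81 and +129 gave 1.34 and 1.77. At viewpoint 12 the values were 1.37 and 1.40 against 1.32 and 1.24. The groups did not overlap at any of these 3 viewpoints. At viewpoint 11, reads of Df of E71 were correlated with those of +129 of E117. Df gave 1.98 and 1.69 there and +129 gave 1.88 and 1.32, and the groups overlapped. With a single read taken as a capture the difference shrank to 0.0571 (p = 0.667, exact permutation test), and Df of E71 then lay between the 2 values of +129.

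The intact homologues were compared in the same way at viewpoints 1, 2, 3, 5 and 12. +DBl6 had 1.33 and 1.48 times the distal level and +Bl6 1.39 and 1.37, a difference of 0.0278 (p = 1, exact permutation test), so the 2 lines of +DBl6 lay on either side of those of +Bl6. At viewpoints 1, 2 and 12 alone, the set used for Df and taken here after the data had been seen, +DBl6 had 1.61 and 1.55 (mean 1.58 ± 0.0408 SD) and +Bl6 1.46 and 1.45 (1.45 ± 0.0066). That difference of 0.132 (p = 0.33, exact permutation test) stands beside the 0.163 of Df against +129 at the same viewpoints, and the groups did not overlap in either comparison. Both chromosomes of E71 and E98 were thus higher than their counterparts in E117 and E118 there, and whether the 2 differences differ was not tested. Of the 35 steps of the stretch tested, none was called by edgeR, with 1 at an unadjusted p under 0.05, and none by DESeq2, with 0 at an unadjusted p under 0.05. The background over 297 steps was 0.0% in either direction. The step with the lowest p was that from 47.0 Mb, with 13 and 28 captures on +DBl6 against 34 and 50 on +Bl6 (log2 difference -0.59, adjusted p = 0.897, edgeR). Between the homologues of the control lines, +129 against +Bl6, none of 35 steps was called by edgeR (1 at an unadjusted p under 0.05, 0.0% called over 298 steps) or by DESeq2 (0 at an unadjusted p under 0.05). The lowest p was that of the step from 48.0 Mb, with 22 and 20 captures on +129 and 32 and 36 on +Bl6 (log2 difference -0.64, adjusted p = 0.859, edgeR). These tests did not pair the homologues by line, and with the line as a block edgeR called 0 steps of the stretch.

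Both the level and the pattern of the stretch varied between viewpoints. Over the distal level it had 1.46, 1.69, 1.36, 1.36, 1.23, 1.05, 1.09, 1.06, 1.15, 1.40, 1.53 and 1.34 at viewpoints 1 to 12 in turn. All lay above 1, and the lowest were viewpoints 6, 7 and 8. Of the 36 steps, 19 were above the distal level at 8 or more viewpoints (32.5% of all 194 steps) and 5 at all 12 (8.25%), the steps from 41.0, 43.0, 44.0, 46.0 and 46.5 Mb. The block from 43.0 Mb was above the distal level at 12 of 12 viewpoints, with ratios from 1.52 to 2.37 and a median of 2.07. The block from 53.0 Mb was above at 10 viewpoints (0.705 to 1.92), that from 40.5 Mb at 9 (0.647 to 3.65) and that from 54.5 Mb at 8 (0.377 to 3.01). The low block from 50.0 Mb was above 1 at 2 viewpoints, 6 and 7. The blocks were chosen from viewpoints 1, 2, 3, 5 and 12, so the values at these viewpoints are not independent of that choice.

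**Figure D3:**
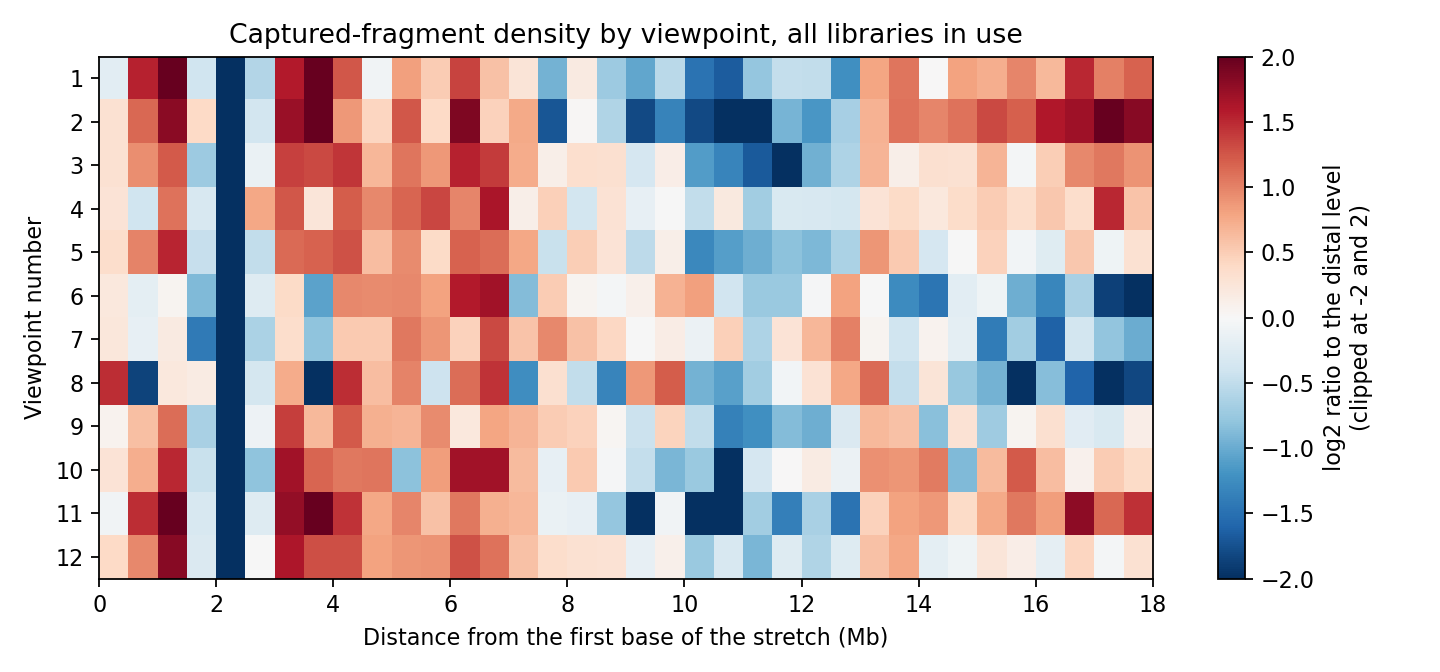
The log2 ratio of captured fragments to the distal level (colour, clipped at -2 and 2) in each 500 kb step (x axis, Mb from the first base of the stretch) for each of the 12 viewpoints (y axis, viewpoint number), summed over all libraries in use. Red bands at the blocks from 40.5 and 43.0 Mb and the blue band from 50.0 to 53.0 Mb run through most rows, and rows 6, 7 and 8 break them.

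Viewpoints 6, 7 and 8, labelled 152.1, 152.4 and 152.9 Mb, met the stretch in another pattern. Their 36 step ratios had Spearman correlations of 0.165, 0.0608 and 0.0672 with the pooled profile of viewpoints 1, 2, 3, 5 and 12. Viewpoints 4, 9, 10 and 11 had 0.678, 0.755, 0.740 and 0.917. The pooled viewpoints had 0.866 to 0.947, but each of them is part of that profile. At viewpoints 6, 7 and 8 the block from 40.5 Mb had 0.944, 0.998 and 0.647. The block from 54.5 Mb had 0.531, 0.571 and 0.377, and the low block from 50.0 Mb 1.08, 1.28 and 0.913. Of the 4 blocks above the distal level, that from 43.0 Mb was above it at all 3 of these viewpoints, at 1.74, 1.55 and 1.52, and that from 53.0 Mb at viewpoint 8 (1.45) but not at 6 and 7 (0.705 and 0.894). Summed over these 3 viewpoints, the block from 54.5 Mb had 0.447 in E71, 0.436 in E98, 0.481 in E117 and 0.548 in E118, against 1.61, 1.73, 1.50 and 1.47 at the other 9 viewpoints. The block from 40.5 Mb had 1.17, 1.02, 0.653 and 0.861, against 3.14, 2.86, 2.12 and 2.46. The block from 50.0 Mb had 1.18, 1.26, 0.923 and 1.10, against 0.485, 0.548, 0.555 and 0.558. In each of these 3 blocks the lines at viewpoints 6 to 8 did not overlap those at the other 9, of which 5 had served to choose the blocks. The contrast was not particular to them, as the lines did not overlap in the other mappable blocks either. The block from 43.0 Mb had 1.59 to 1.67 against 1.91 to 2.35, and that from 53.0 Mb 0.569 to 1.17 against 1.50 to 1.70. The block from 49.0 Mb had 0.997 to 1.84 against 0.510 to 0.749. Single viewpoints were less uniform: at viewpoint 7 the block from 40.5 Mb had 2.35 in E71 and 2.11 in E98 (5 captures each) but 0.815 in E117 and 0.639 in E118 (2 and 9 captures), and the block from 50.0 Mb had 0.576 in E117 there and 0.721 in E71 at viewpoint 6.

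The counts behind these values were small in part of the lines. The block from 54.5 Mb held 14, 14, 12 and 83 captures at viewpoints 6 to 8 in E71, E98, E117 and E118, and the block from 40.5 Mb held 9, 8, 4 and 32. Reads of E71 and E98 were correlated at each of these viewpoints (r of 0.962 to 0.968 for +DBl6). These 2 lines count as a single sample there, which leaves 3. At viewpoint 7, reads of +129 of E117 and E118 were correlated as well (r = 0.527 over 37 fragments). At viewpoint 6, E117 and E118, for which no such correlation was found, gave 0.291 and 0.570 for the block from 54.5 Mb. At viewpoint 8 they gave 0.431 and 0.428. The segments around these viewpoints held 2, 0 and 1 protein-coding genes in the 500 kb around the label position, while viewpoint 4 held 1, viewpoint 10 held 3 and the others 8 to 19. The contrast was noticed in these data and carries no test, and the part of the gene content around a viewpoint in it was not tested.

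**Figure D4:**
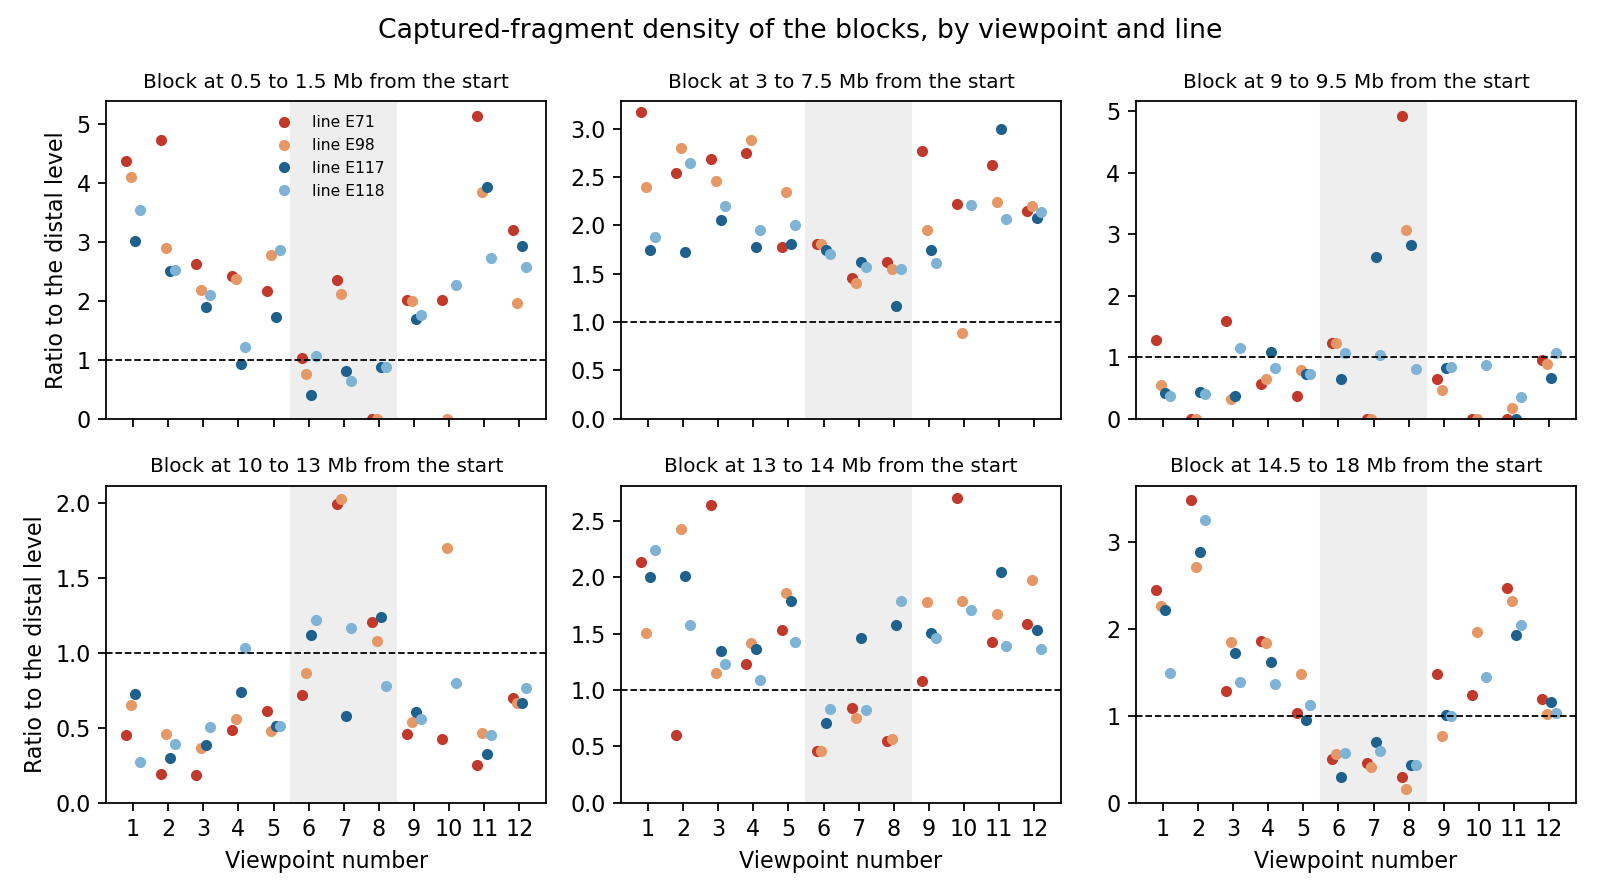
Ratio of captured fragments to the distal level (y axis) for the 6 mappable blocks, a panel each, at viewpoints 1 to 12 (x axis), with a point for each of the 4 MEF lines and viewpoints 6 to 8 in grey. The block from 43.0 Mb keeps most points above 1 throughout, and all points of the block from 54.5 Mb at viewpoints 6 to 8 lie below 1 (0.155 to 0.700). The blocks from 40.5 and 50.0 Mb scatter on both sides of 1 there.

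Read density gave a similar profile over the steps. The ratio of read density to the distal level followed that of captured fragments over the 33 steps that were at least 90% mappable (Spearman 0.969, as a description). The block from 40.5 Mb had a read ratio of 2.51 ± 0.394 (SD, n = 4), that from 43.0 Mb 2.28 ± 0.339, that from 53.0 Mb 1.93 ± 0.493, that from 54.5 Mb 1.71 ± 0.0995 and the low block from 50.0 Mb 0.431 ± 0.0722. The step from 49.0 Mb, low in captures, had 0.973 ± 0.482 in reads, with lines from 0.483 to 1.55. Reads pile up on few fragments: the top fragment of a library held a median of 5.58% of its reads in the stretch, and the top fragment of a step above the distal level a median of 8.82% of that step's reads. The stretch took 0.0878% to 2.43% of a library's chromosome 4 reads, with a median of 1.07%.

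Steps above the distal level were richer in GC and in genes. The 21 steps above had a GC content of 41.3% to 49.2% (median 44.9%) and a median of 6 protein-coding genes, and the 7 readable steps below had 36.8% to 40.6% (median 37.6%) and a median of 1. The other 2 steps below, from 41.5 and 42.0 Mb, are the poorly mappable ones, with 48.4% and 47.6% GC. Over the 33 mappable steps the ratio correlated with GC content (Spearman 0.861) and gene number (0.709) and inversely with the number of HindIII fragments (-0.639). Over the 132 mappable distal steps outside the stretch these values were 0.727, 0.585 and -0.303. They are descriptions, since the steps share libraries, neighbours and base composition. At viewpoints 6, 7 and 8 the correlation with GC content over the steps of the stretch was 0.166, 0.0983 and -0.0555, against 0.628 to 0.883 at the others. When fragments were compared with others of the same GC class, 17 of the 21 steps remained above and the level of the stretch was 1.16 in place of 1.38. That setting was added after the data had been seen.

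**Figure D5:**
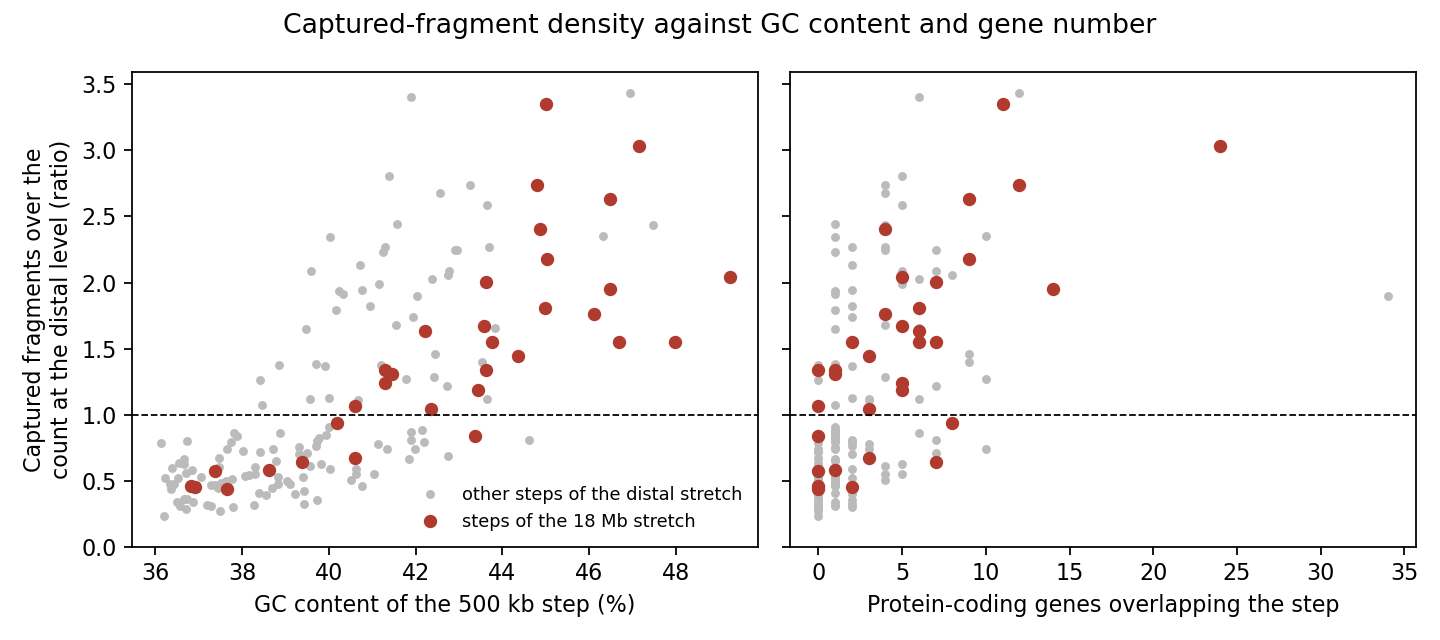
Ratio of captured fragments to the distal level (y axis) against the GC content of the 500 kb step in percent (left) and the number of protein-coding genes overlapping it (right), for the 33 steps of the stretch that are at least 90% mappable (dark points) and the 132 other such distal steps (grey points). The stretch follows the slope of the rest, with its lowest ratios under 40% GC.

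Within the stretch, fragments of genes were captured more often than those between genes. Among mappable fragments, the 1947 inside genes were captured in 2.23% of cases in E71, 5.72% in E98, 4.42% in E117 and 6.10% in E118. The 3057 between genes were captured in 1.15%, 2.83%, 2.56% and 3.24%, lower in each line. The ratio was 1.89 ± 0.125 (SD, n = 4; p = 0.125 in the exact sign-flip test, the smallest that 4 lines allow). Over 3 to 100 Mb the same ratio was 1.81 ± 0.121, and it was 1.52 ± 0.0856 inside the blocks above the distal level and 1.78 ± 0.162 in the rest of the stretch. The 154 fragments that hold a gene start had 2.14 ± 0.330 times the share of those between genes (p = 0.125, exact sign-flip test), and over 3 to 100 Mb this ratio was 2.49 ± 0.267. They were longer, with a median of 5662 bases against 2048, and the part of fragment length in this was not tested.

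The genes of the stretch were grouped in 2 lists. Of 30 widely expressed genes, such as those of protein turnover (Vcp, Bag1), RNA polymerase I (Polr1e) and secretion (Sec61b), 29 start in steps called above the distal level. The remaining one is Smc2, in the step from 52.0 Mb (ratio 0.584). Of 17 genes found of an 18-gene list with tissue-restricted expression, 11 start in steps above, 3 in steps below (Ccl27a, Cntfr and Cylc2) and 3 in steps not called (Ccl19, Ccl21a and Grin3a). Ccl27a, Cntfr, Ccl19 and Ccl21a lie in the poorly mappable steps, so that leaves Cylc2 and Grin3a as list members in readable steps not above. The median step ratio was 2.09 for the first list and 1.63 for the second. Of all 212 protein-coding genes that start in the stretch, 131 did so in steps above, 48 in steps below and 33 in steps not called. Of these 212, 20, 16 and 17 start in the poorly mappable steps from 41.5, 42.0 and 42.5 Mb, none of which was called above. The share above among all genes is therefore lowered by unreadable sequence. The lists were chosen with earlier results of these data known and several members share a step, so the counts are a description. RNA was not measured in these libraries, and the lists give an assigned breadth of expression rather than levels in these MEFs. Klf4, named above for epithelia and pluripotent cells, was counted in the first list.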

How the data were processed

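Per the labels and the study's methods, 4C templates were cut with HindIII and DpnII, amplified without molecular identifiers and sequenced in pairs. The authors assigned alleles from viewpoint variants, trimmed the second read to 30 bases, mapped it with Bowtie (version not given in the sources used here) to mm9, and deposited whole-number read counts per HindIII fragment. The deposited region tables of the authors' own comparisons of chromosomes were not used.

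A fragment with at least 5 reads, the threshold in the methods, was captured. Libraries held 444 to 3969613 reads, and those with fewer than 10000, and Df libraries of deleted viewpoints, were left out. Captures were summed per 500 kb step and MEF line and tested in R 4.3.3 with edgeR 4.0.16 (quasi-likelihood F test of the intercept, computed from the fit with the distal level as offset, minimum expected count 10, TMM between chromosomes, minimum mean 5, Benjamini-Hochberg under 0.05). limma 3.58.1 and DESeq2 1.42.0 served as alternatives. The tests were checked on simulated data with known differences. Neighbouring called steps with 1 direction in all 4 lines formed blocks, and up to 6 protein-coding genes per block were named, members of the 2 gene lists first, then the longest. A gene that this rule names is not reported here. Fragment positions, GC content and mappability came from the NCBIM37 genome, genes from GENCODE M1. The members, lists and rules were chosen with earlier results of these data known. +129 and +Bl6 share their lines. The main test between them did not use this pairing, and an alternative took the line as replicate block. E71 and E117 were purified with one kit and E98 and E118 with another, per the methods, and this gave the replicate block of the other tests.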

Additional observations from a re-analysis of the deposited data

Results flagged for a closer look

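In the step from 50.5 Mb, line E71 stood apart from the other 3 lines, with a ratio to the distal level of 0.886 against 0.380 to 0.459. It rested on 11 captures. In the step from 55.5 Mb, line E118 was lowest, at 1.12 against 1.43 to 1.49, and in the step from 57 Mb line E71 was lowest, at 1.37 against 1.76 to 1.83. Each value lay on the same side of 1 as the other lines. These are 3 of 37 groups of 4 lines examined by the gap of the extreme line to its nearest neighbour, and chance marks about 1 group in 20.

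The Df libraries of line E98 at viewpoints 3, 7 and 10, where that chromosome has no viewpoint sequence to amplify, still held captured fragments from 40 to 58 Mb, 4, 7 and 8 of them, above the limit that a count of 0 allows (3 counts). They entered no comparison, and their origin was not tested.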

How the results depend on the processing

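The counts of steps above and below the distal level stayed within 1.5 times of 21 and 9 under the alternatives tried, among them a replicate block by purification kit (21 and 9), reads in place of captures (16 and 6), and both alleles counted once (21 and 10, added after seeing the data). Leaving out each line gave 18 to 21 above and 8 to 9 below. Of the 30 called steps, 18 kept direction and call under each alternative run and 12 lost the call in at least 1. The step from 41.5 Mb reversed with mappable fragments only (log2 1.04), and the step from 48.0 Mb with reads (log2 -0.33, adjusted p = 0.375, edgeR). The level of 1.38 was 1.63 with the distal level from 3 to 80 Mb, 1.50 without 40 to 58 Mb and 1.16 with GC classes, and 1.34 to 1.41 without each line in turn. Df against +129 had 1 called step with total captured fragments as scale and 1 with no minimum count, against 0, and 0 to 0 without each line. The replicate block gave 0 in each comparison of chromosomes, the pairing of +129 with +Bl6 by line included. Without each line the level difference was 0.128 to 0.199 for Df against +129 and -0.0464 (without E98) to 0.102 for +DBl6 against +Bl6, where 1 read per capture also turned the sign (-0.0044) and viewpoints 1, 2 and 12 alone, added after seeing the data, gave 0.132. For +129 against +Bl6, leaving out a line was not run, as 1 library a group leaves no residual. Lines with few captures, E71 above all, limit the single steps.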
